A study of Drosophila melanogaster with 3 samples.

Results

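The genes described here are 10 core components of the microRNA (miRNA) and small interfering RNA (siRNA) pathways of Drosophila melanogaster. They are drosha, pasha, Dcr-1, loqs, AGO1 and gw of the miRNA branch, and Dcr-2, r2d2, AGO2 and Hen1 of the siRNA branch. They were chosen by symbol, as core machinery of these pathways, and all 10 had a row among the 17278 FlyBase gene identifiers of the deposited expression table. RNA came from salivary glands of L3 larvae kept at 25 °C, with 50 glands in each sample. The 3 libraries of polyadenylated RNA form 1 control group with no treatment. Their titles name an Oregon stock as wild type, whereas the genotype field gives yw, and this difference was not resolved. The labels do not say whether the 3 samples came from separate animals or cultures, and p-values over them measure only their spread, which could be technical.

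In the miRNA branch, the nuclease Drosha and its partner Pasha cut hairpins out of primary transcripts in the nucleus. Dicer-1 with Loquacious then cuts the hairpin into a duplex, and Argonaute-1 carries the mature miRNA to target mRNAs, where GW182, the product of gw, recruits deadenylation factors. In the siRNA branch, Dicer-2 cuts long double-stranded RNA, R2D2 helps to load the duplex into Argonaute-2, and Hen1 methylates the 3′ ends of the loaded siRNAs. The siRNA branch is known for defence against viruses and for silencing transposons in somatic tissue. One Loquacious isoform also assists Dicer-2, and values per gene cannot separate the isoforms of loqs.

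Levels are FPKM, fragments scaled to gene length and library depth, so different genes can be compared within a library. For nearly all genes the length counts every annotated exon base, whichever transcripts are expressed, so such comparisons depend on the gene model. Depth outside rRNA genes and pseudogenes was 678737 to 1185577 fragments per library, as recovered from the values. The FPKM are scaled to smaller denominators of 499875, 727436 and 945562 fragments in replicates 1, 2 and 3, so that for 2000 bases of exon each fragment added 1.0, 0.687 and 0.529 FPKM. The gland label was checked against 6 gland markers, which were all at 1 FPKM or more in every library, among them Sgs3 at 199524 ± 39418 FPKM (SD, n = 3) and the transcription factor gene sage at 723 ± 52.0. All 6 fat body markers passed the same limit, with a summed level of 2882, 4100 and 4273 FPKM in replicates 1, 2 and 3. Of the other markers, 1 of 5 for hemocytes, 1 of 5 for imaginal discs, 2 of 5 for muscle and 0 of 4 matched for germline passed it, and vas and piwi were listed at 0. That limit was passed by 33.1% of all genes in the table. The part of other cell types in the levels below was not tested, and in bulk RNA fewer cells of a type and less RNA per cell cannot be told apart.

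mRNAs of the pathway were found in the gland over a wide range of levels. AGO2 led at 123 ± 11.2 FPKM (SD, n = 3), followed by gw at 28.1 ± 3.35 and AGO1 at 20.3 ± 2.56. The siRNA dicing partners r2d2 and Dcr-2 were in the middle, and drosha, loqs, pasha, Dcr-1 and Hen1 all had means under 5 FPKM. Of the 10 genes, 9 were at 1 FPKM or more in every library, against 33.1% of all genes in the table and 40.1% of protein-coding genes. The exception was Hen1, which was under the limit in replicate 2. The median member had 7.60 FPKM, against 0.363 FPKM for the median gene of the table and 0.847 FPKM for the median protein-coding gene. Together the 10 genes held 534, 696 and 989 fragments in replicates 1, 2 and 3.

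**Figure D1:**
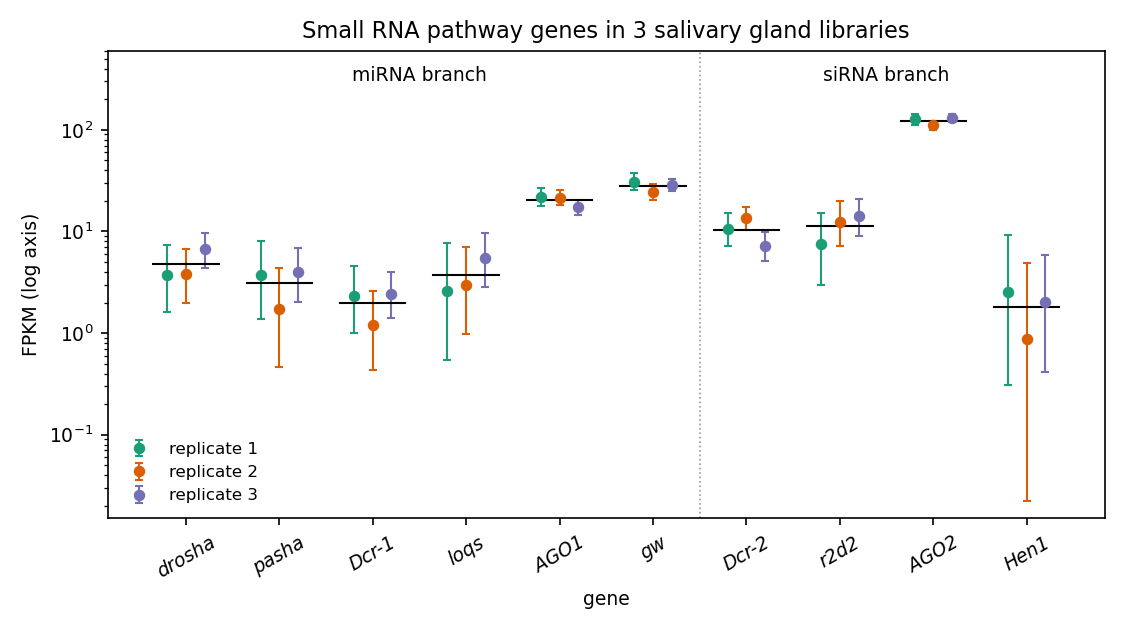
FPKM of each pathway gene on a log axis, with 1 point per library, its exact 95% Poisson counting interval as the error bar, and the mean of the 3 libraries as a black line. AGO2, at 110 to 132 FPKM, lies above every other gene in all 3 libraries, and the widest interval belongs to Hen1, which rested on 6 fragments in all.

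The nuclear step had low levels. drosha (FBgn0026722, BDGP6.54 2R 7932429 to 7936840), which encodes the RNase III enzyme, had 3.73, 3.85 and 6.66 FPKM in replicates 1, 2 and 3, from 8, 12 and 27 fragments. pasha (FBgn0039861, 3R 31617977 to 31622217), which encodes its double-stranded RNA-binding partner, had 3.73, 1.71 and 3.95 FPKM from 6, 4 and 12 fragments. The pair was level in replicate 1, and drosha was higher in the other two libraries. pasha minus drosha was -0.49 ± 0.44 on the log2(FPKM + 1) scale (SD, n = 3), with an exact two-sided sign-flip permutation p of 0.5. Per base, pasha had 0.625 times the fragments of drosha, with an exact 95% interval of 0.359 to 1.06, so a difference between them was not detectable at this depth. The exons of pasha share 2.6% of their bases with kek6 on the same strand, and those of drosha share none with another gene.

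The miRNA dicing step was lower still for its enzyme. Dcr-1 (FBgn0039016, 3R 22734007 to 22741091), whose single annotated transcript encodes a protein of 2249 residues, had 2.32, 1.19 and 2.45 FPKM from 8, 6 and 16 fragments. loqs (FBgn0032515, 2L 13382652 to 13385671) had 2.62, 3.00 and 5.54 FPKM from 3, 5 and 12 fragments. loqs was the higher of these partners in every library, by little in replicate 1 and more in the others. Dcr-1 minus loqs was -0.64 ± 0.44 on the log2(FPKM + 1) scale (SD, n = 3), with an exact sign-flip p of 0.25, the smallest that 3 libraries allow. The ratio of fragments per base, Dcr-1 to loqs, was 0.497 with an exact 95% interval of 0.273 to 0.923. The 6 annotated transcripts of loqs encode 6 protein lengths, from 359 to 465 residues. An antisense RNA gene, asRNA:CR44599, lies over 18.3% of the exon bases of loqs and was listed at 0 in every library. Since counting was marked as unstranded, reads in the shared bases cannot be told apart, so this 0 does not show its absence.

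The effectors of the miRNA branch stood well above its processing enzymes. AGO1 (FBgn0262739, 2R 13943387 to 13958089), the Argonaute that carries miRNAs, had 22.0, 21.6 and 17.4 FPKM from 91, 130 and 136 fragments. gw (FBgn0051992, chromosome 4 649041 to 660608), whose protein binds Argonaute-1 and recruits the deadenylases, had 31.0, 24.5 and 28.9 FPKM from 115, 132 and 203 fragments. gw was above AGO1 in every library, and the lowest value of gw exceeded the highest of AGO1. AGO1 minus gw was -0.45 ± 0.27 on the log2(FPKM + 1) scale (SD, n = 3, exact sign-flip p = 0.25, the smallest possible), and the ratio of fragments per base was 0.711 (exact 95% interval 0.617 to 0.819). gw was the 1 member whose values gave no whole fragments over its annotated exons of 6146 bases. They gave them over 7420 bases, 1274 more, so the gene model behind the deposited value was longer than the one used here. The neighbouring gene CG46466, on the same strand 401 bases away with 1211 exon bases, has no row in the table, and whether the deposited gw value includes it was not tested.

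The levels of the dicing partners of the siRNA branch overlapped. Dcr-2 (FBgn0034246, 2R 17574979 to 17581525), the enzyme that cuts long double-stranded RNA, had 10.6, 13.5 and 7.26 FPKM from 30, 56 and 39 fragments. r2d2 (FBgn0031951, 2L 7800147 to 7802098), which encodes the partner with double-stranded RNA-binding domains, had 7.45, 12.4 and 14.1 FPKM from 7, 17 and 25 fragments. Dcr-2 was the higher in replicates 1 and 2 and the lower in replicate 3. Dcr-2 minus r2d2 was -0.10 ± 0.69 on the log2(FPKM + 1) scale (SD, n = 3, exact sign-flip p = 1), and without replicate 3 it was 0.28. The ratio of fragments per base was 0.843, with an exact 95% interval of 0.602 to 1.20 that includes equal levels. The opposite-strand gene Cdc14 covers 22.9% of the exon bases of r2d2. Cdc14 was listed at 8.92, 5.88 and 9.04 FPKM, and since the table's name marks the counting as unstranded, reads in the shared bases cannot be told apart.

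On the deposited scale, Dcr-2 was the 1 member whose libraries differed beyond counting error. The exact 95% counting interval of its highest library, replicate 2, was 10.2 to 17.6 FPKM, and that of its lowest, replicate 3, was 5.16 to 9.92 FPKM. Intervals that do not overlap were found for 9.38% of the 17142 genes with recovered fragments, for 26.5% of the 5656 of them detected in every library, and for 16.9% of the 4100 detected genes with 10 to 200 fragments. A count of 1 in 10 members is close to the first of these shares and below the others. Without replicate 2, or without replicate 3, no member's intervals were apart. With each library rescaled to an equal sum (TPM), the intervals of Dcr-2 overlapped as well, and those of AGO2 and gw were apart. Under TPM 13.2% of the 17142 genes, and 37.6% of the 5656, had intervals apart. The summed level of the 6 fat body markers was 4100 FPKM in replicate 2 and 4273 FPKM in replicate 3. Lower in replicate 3 were Fbp1, at 272 against 1468 FPKM, Fbp2, at 784 against 851, and Lsp2, at 86.2 against 91.6. Higher were Lsp1alpha, at 979 against 298 FPKM, Lsp1beta, at 820 against 593, and Lsp1gamma, at 1331 against 798. Whether fat body RNA bears on the Dcr-2 values was not tested.

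AGO2 and Hen1 had the highest and the lowest mean of the pathway. AGO2 (FBgn0087035, 3L 15554113 to 15561042), the Argonaute that cleaves targets of siRNAs, had 127, 110 and 132 FPKM from 264, 333 and 516 fragments. It ranked 442 of all 17278 genes by mean FPKM and 421 among protein-coding genes. On the deposited scale its 3 libraries had an SD of 9.11% of the mean, whereas as TPM they had 46.6, 58.5 and 77.3, with an SD of 25.5% of the mean. Hen1 (FBgn0033686, 2R 12145710 to 12152752), the methyltransferase gene, had 2.54, 0.874 and 2.02 FPKM from 2, 1 and 3 fragments, so its level is known only roughly. AGO2 minus Hen1 was 5.51 ± 0.36 on the log2(FPKM + 1) scale (SD, n = 3, exact sign-flip p = 0.25, the smallest possible), and the ratio per base was 70.4 with an exact 95% interval of 32.2 to 192. The opposite-strand gene CG7739, at 21.9, 32.5 and 31.5 FPKM, covers 7.6% of the exon bases of AGO2.

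Genes with similar roles were then compared between the branches in 3 pairs. In each pair, the siRNA gene was above the miRNA gene in 3 of 3 libraries. The Dicers and their double-stranded RNA-binding partners were both assigned to dicing, so the pairs are not 3 separate steps. The difference AGO2 minus AGO1 was 2.55 ± 0.28 on the log2(FPKM + 1) scale (SD, n = 3), and FPKM of AGO2 was 5.80, 5.12 and 7.58 times that of AGO1 in replicates 1, 2 and 3. Dcr-2 exceeded Dcr-1 by 1.93 ± 0.74, with FPKM ratios of 4.56, 11.4 and 2.96 in the same order. For r2d2 and loqs the difference was 1.39 ± 0.31, with ratios of 2.84, 4.14 and 2.54. Each of these differences was larger than its SD. The exact two-sided sign-flip p was 0.25 for each, the smallest that n = 3 allows, and 0.333 after Benjamini-Hochberg adjustment over the 8 pairs compared, so no pair could pass a threshold of 0.05. Counting error alone left the fragments per base at ratios of 6.23 (exact 95% interval 5.52 to 7.04) for the Argonautes, 5.07 (3.38 to 7.82) for the Dicers and 2.99 (1.74 to 5.30) for the double-stranded RNA-binding partners. In each pair the miRNA gene had more annotated exon bases. These were 8278 for AGO1 against 4144 for AGO2, 6913 for Dcr-1 against 5684 for Dcr-2, and 2290 for loqs against 1879 for r2d2. The intervals do not cover the choice of gene length, and its effect was not tested. Members were not uniform within a branch, since Hen1 of the siRNA branch had the lowest mean, from 6 fragments, with library values that overlapped those of Dcr-1. The median of the 4 siRNA genes exceeded that of the 6 miRNA genes by 1.19 on the log2(FPKM + 1) scale, and by 1.06, 1.67 and 0.66 in replicates 1, 2 and 3. With AGO2 left out, a choice made after seeing the data, it was 1.14. The members and pairs themselves were also chosen with earlier results of these data known.

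**Figure D2:**
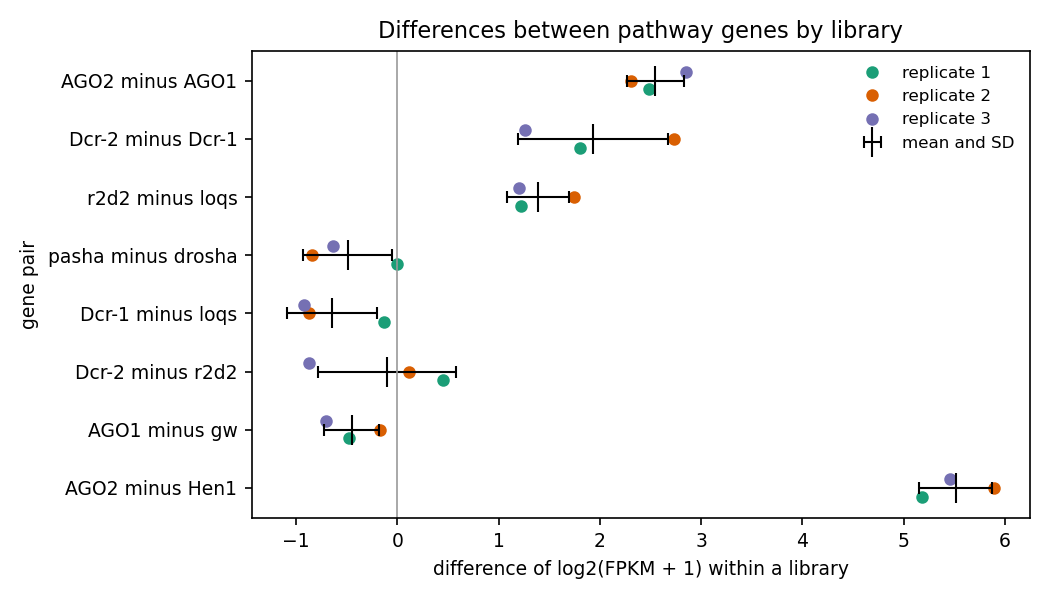
Difference of log2(FPKM + 1) between the 2 genes of each pair, with 1 point per library and the mean and SD over the 3 libraries in black. The upper 3 pairs set siRNA genes against miRNA genes of a similar role and lie above 0 in every library, whereas Dcr-2 minus r2d2 lies on both sides of 0.

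Neighbours in the order of levels were separate mainly at its upper end. The library values of AGO2, gw and AGO1 did not overlap with those of the next gene in the order. r2d2 and Dcr-2 overlapped, and so did each neighbouring pair from drosha through loqs, pasha and Dcr-1 to Hen1. Between Dcr-2 and drosha the ranges were separate, with a difference of 0.99 ± 0.78 on the log2(FPKM + 1) scale (SD, n = 3). Their counting intervals in replicate 3 overlapped, at 5.16 to 9.92 and 4.39 to 9.68 FPKM. Against the 7129 genes with a mean of at least 1 FPKM, whose median was 8.36 FPKM, the members fell on both sides. AGO2 was above 93.8% of them, gw above 78.7%, AGO1 above 72.9%, r2d2 above 58.7% and Dcr-2 above 56.5%. drosha was above 34.0%, loqs above 28.3%, pasha above 24.0%, Dcr-1 above 14.3% and Hen1 above 12.6%. Thus 5 of the 10 members, among them every gene of the nuclear step, lay in the lower part of the expressed genes. AGO2 alone made up 58.9% ± 1.50 (SD, n = 3) of the summed FPKM of the members.

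**Figure D3:**
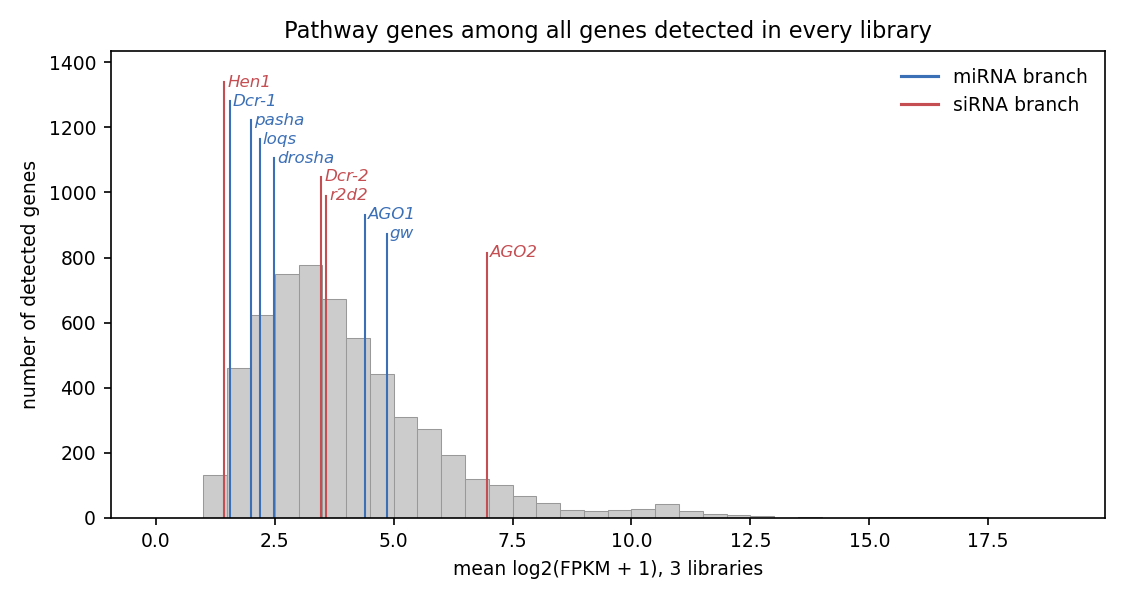
Number of genes at each mean log2(FPKM + 1) among the 5711 genes detected in every library, in grey, with the pathway genes as vertical lines coloured by branch. AGO2 lies in the upper tail at 6.95, whereas drosha, loqs, pasha, Dcr-1 and Hen1 lie at 2.49 or lower; Hen1, which was not detected in every library, is shown for position.

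The Argonaute family in this tissue consisted, as far as detected, of the members AGO1 and AGO2. The PIWI-type Argonautes, which carry piRNAs in the germline, were at the limit of detection. AGO3 rested on 2 fragments and aub on 1, and piwi was listed at 0 in all 3 libraries. A count of 0, taken to allow up to 3 fragments, allows piwi up to 1.95, 1.34 and 1.03 FPKM in replicates 1, 2 and 3. Among 8 genes of proteins with double-stranded RNA-binding domains, 7 were detected in every library, against 40.1% of protein-coding genes. Their median was 5.14 FPKM. DIP1 led at 27.3 ± 4.54 FPKM (SD, n = 3), above r2d2. stau, which binds localised mRNAs, had 7.84 ± 1.94, the dosage compensation helicase gene mle had 6.56 ± 1.39, and the RNA-editing gene Adar had 1.95 ± 0.626. blanks was listed at 0, where 3 fragments would be 4.73, 3.25 and 2.50 FPKM.

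Factors that act with the core genes were described from lists of known function. For comparison, 33.1% of all genes in the table and 40.1% of protein-coding genes were detected in every library. Of 8 genes for miRNA biogenesis, export and trimming, 8 were detected in every library, with a median of 17.9 FPKM. Tudor-SN, which encodes a nuclease of the silencing complex, led at 144 ± 35.9 FPKM (SD, n = 3). Ars2, which links the cap-binding complex to primary miRNAs, had 21.3, 8.22 and 26.4 FPKM, and the cap-binding genes Cbp20 and Cbp80 had 18.9 ± 12.5 and 17.2 ± 2.12. The uridylyltransferase gene Tailor had 19.0 ± 7.16, the exonuclease gene Dis3l2 8.32 ± 1.46 and Nbr, which trims miRNA 3′ ends, 7.79 ± 0.774. Ranbp21, the exportin gene for miRNA hairpins, was the lowest at 5.24 ± 1.17, near drosha. Every gene of this list thus had a mean above those of the 5 lowest members.

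The list of silencing effectors holds genes for deadenylation, decapping, decay and translational repression of mRNAs, and also a poly(A)-binding protein gene. All were detected in every library, 18 of 18, against 33.1% of all genes and 40.1% of protein-coding genes, with a median of 20.3 FPKM. The poly(A)-binding protein gene pAbp was by far the highest at 721 ± 166 FPKM (SD, n = 3). The translational repressor gene me31B had 41.3 ± 4.52, its partner gene tral 40.0 ± 1.95, and the exonuclease gene pcm, the lowest, 5.26 ± 1.48. All 5 chaperone genes for loading of the silencing complex were detected, with a median of 49.7 FPKM. Hsc70-4 had 343 ± 46.1 FPKM, p23 49.7 ± 18.4, Droj2 31.5 ± 6.04 and Stip1 26.7 ± 4.16. Hsp83, the Hsp90 gene, had 109, 118 and 43.9 FPKM in replicates 1, 2 and 3. The counting intervals of the lowest and the highest library were apart for Hsp83, Hsc70-4 and p23. These chaperone genes held 539, 1971 and 130 fragments in all. Among factors named here from the biogenesis, effector and cofactor lists, intervals were also apart for Tudor-SN, Ars2, pAbp, bel and trsn. They were apart for 26.5% of the genes detected in every library, and for 16.9% of those with 10 to 200 fragments.

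Of 9 cofactors of siRNAs and the silencing complex, 7 were detected in every library, against 40.1% of protein-coding genes. Their median was 16.3 FPKM. The helicase gene Rm62 had 97.5 ± 4.44 FPKM (SD, n = 3), bel 38.6 ± 8.19 and vig2 29.0 ± 7.01. Fmr1, the fly homologue of the fragile X gene, had 6.52 ± 1.14, and vig had 3.26 ± 0.367. Trax and trsn encode the partners of C3PO, the nuclease that removes the passenger strand of siRNAs. Trax had 27.1, 17.4 and 36.2 FPKM, while trsn had 11.6, 3.18 and 34.3 FPKM from 5, 2 and 28 fragments. Both were lowest in replicate 2 and highest in replicate 3, and trsn was below Trax in every library. armi, known for the piRNA pathway, was listed at 0 in replicate 1 and rested on 6 fragments in all.

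**Figure D4:**
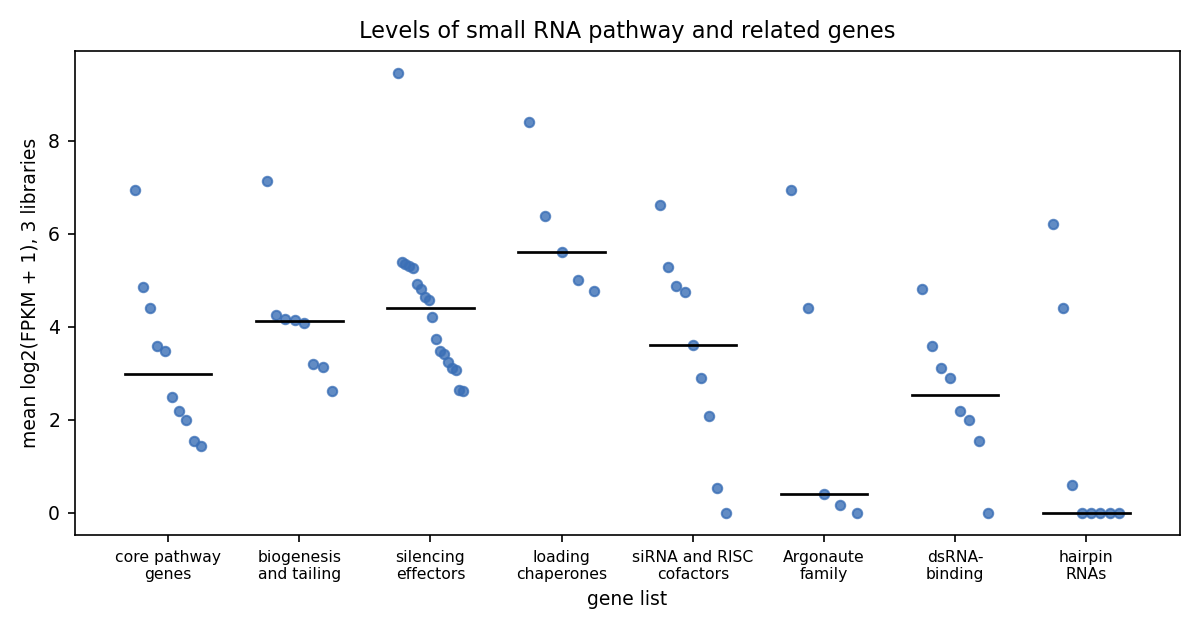
Mean log2(FPKM + 1) over the 3 libraries for each gene of the core pathway and of the related lists, with 1 point per gene and the list median as a black line; AGO1, AGO2, r2d2, loqs, pasha and blanks appear in more than 1 list. The core pathway median of 2.98 lies below those of the biogenesis list (4.12), the silencing effectors (4.40), the loading chaperones (5.60) and the cofactors (3.62), and above those of the double-stranded RNA-binding list (2.55), the Argonaute family (0.41) and the hairpin RNAs (0).

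The RNAs that feed both branches were looked up in the same table. Long hairpin RNAs are known in flies as sources of endogenous siRNAs, cut by Dicer-2 and loaded into Argonaute-2. Of 8 annotated hairpin RNA genes, 2 were detected in every library, against 33.1% of all genes in the table. Another 5 were listed at 0 in all 3. hpRNA:CR18854 (2L 9787294 to 9790745) had 81.1, 69.7 and 70.5 FPKM from 104, 130 and 171 fragments. Its mean of 73.8 ± 6.38 FPKM (SD, n = 3) lay between those of AGO2 and gw. hpRNA:CR33940 (3L 19486745 to 19488439) had 11.8, 35.3 and 19.8 FPKM from 6, 26 and 19 fragments. Exons of IP3K1 cover 39.7% of the exon bases of hpRNA:CR18854, and IP3K1 was itself listed at 2.86, 5.24 and 8.07 FPKM. Exons of CG32212 cover 41.2% of those of hpRNA:CR33940. Without strand, and with the internal repeats that form a hairpin, these levels are uncertain. hpRNA:CR32207 had 2 fragments, both in replicate 2. The other 5 were listed at 0, and what a count of 0 allows differs widely with their length. It allows up to 0.929, 0.639 and 0.491 FPKM in replicates 1, 2 and 3 for hpRNA:CR46342, and up to 1.79, 1.23 and 0.947 FPKM for hpRNA:CR32205. For the short genes hpRNA:1, hpRNA:CR46343 and hpRNA:CR46340 it allows up to 38.7, 27.9 and 25.1 FPKM in replicate 1 and up to 20.5, 14.8 and 13.3 FPKM in replicate 3. In replicate 1 the level of AGO1 lies within each of these limits.

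Annotated miRNA precursor genes gave almost no fragments in these libraries. Of 257 such genes, 241 were without a fragment in every library, and 16 had at least 1. All 257 together held 5, 11 and 15 fragments in replicates 1, 2 and 3. No precursor had more than 3 fragments in a library. The highest by mean FPKM were mir-4967, with 1, 1 and 2 fragments, mir-4954, with 0, 2 and 1, and mir-4985, with 0, 3 and 0. mir-4967 and mir-3645 were the 2 with a fragment in each library. The precursors have a median length of 92 bases, over which a single fragment equals 21.7, 14.9 and 11.5 FPKM, so an FPKM above 1 means little here. Libraries of polyadenylated RNA do not capture mature miRNAs, so these counts say nothing of miRNA levels.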

How the data were processed

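RNA from 3 control samples was sequenced with a directional kit, per the labels' protocols. The authors deposited FPKM per gene; per the submitters' processing notes, HISAT2 and DESeq were used. The table's name marks paired-end, unstranded counting. No source used here gives the build, annotation or counter.

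Of 17278 identifiers, 17142 matched Ensembl BDGP6.54, release 115, whose coordinates and exon lengths were used. FPKM times exon length gave whole multiples of 1 step per library, within 0.01, for 98.7% to 98.8% of values above 0, which gave fragments per gene. Levels were compared as log2(FPKM + 1), which understates ratios of low genes. Pairs were compared by an exact two-sided sign-flip permutation test over libraries, and fragments by exact 95% intervals. Intervals, and the limit of 3 fragments for a count of 0, cover counting error only. Fragment recovery and the interval rule were tested on simulated data. No count model was fitted, since there is 1 group.

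The members, lists and pairs were chosen with earlier results of these data known. Named were all members, all genes of lists of up to 9 and the 3 highest and the lowest of longer lists. The 241 precursors tied at 0 were not named. mir-3645, IP3K1, Cdc14, CG7739, kek6, CG46466, CG32212 and asRNA:CR44599 were named after their values were seen. Dcp1, Dcp2, Hop, trax and Tsn were matched by hand to DCP1, DCP2, Stip1, Trax and trsn. The germline marker nos was not matched. Alternatives were pseudocounts of 0.1 and 0.01, limits of 0.5 and 2 FPKM, a minimum of 3 fragments, an equal sum per library (TPM), median ratios and leaving out each library. Tests used scipy 1.17.1, tables pandas 2.3.3 and numpy 2.4.6, and plots matplotlib 3.10.9, under Python 3.11.15.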

Additional observations from a re-analysis of the deposited data

How the results depend on the processing

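Of 56 recomputed pair differences, 55 kept their direction, under pseudocounts of 0.1 and 0.01, TPM, median ratios and each library left out. The exception was Dcr-2 minus r2d2, which ran from -0.377 to 0.283 with a library left out and turned positive without replicate 3; the cause was not tested. No pair could pass a threshold with 3 libraries. pasha minus drosha ran from -0.734 to -0.314. TPM divides each library by a sum that includes the rRNA genes and pseudogenes, which together held 55.0%, 41.4% and 24.6% of fragments. It lowered the median member from 7.60 FPKM to 3.77 TPM, and the number of members at 1 or more in every library from 9 to 6. The FPKM of replicates 1, 2 and 3 were divided by 2.74, 1.89 and 1.70, so 1 TPM is a stricter limit than 1 FPKM. AGO2 had 46.6, 58.5 and 77.3 TPM, and under TPM the intervals of 2 members were apart, AGO2 and gw, in place of Dcr-2, against 13.2% of all genes with recovered fragments and 37.6% of those detected in every library. With a library left out, 0 to 1 members had intervals apart. At a limit of 0.5 FPKM 10 members were detected and at 2 FPKM 7, and 10 without replicate 2. The share of all genes detected under these settings, or at 1 TPM, is not given here, so these counts describe the settings only. With at least 3 fragments in every library, 0 miRNA precursors were detected. At the limit of 1 FPKM, which 1 fragment passes for a precursor, 2 to 4 were detected with a library left out. No paired analysis was possible because there is 1 group. Members under 100 fragments, 6 of 10, are limited by depth.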

Other observations

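Replicate 2 was the lowest library for 5 of the 10 members, AGO2, gw, pasha, Dcr-1 and Hen1, and replicate 3 was the highest for 6. Among the 5711 genes detected in every library, replicate 2 was the lowest for 36.6% and replicate 3 the highest for 41.1%. For all of these members the counting intervals of the lowest and the highest library overlapped, so the pattern rests on differences within counting error.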
